A study of Homo sapiens with 8 samples.

Results

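The 5S RNP, the particle of 5S ribosomal RNA with the large-subunit proteins RPL5 and RPL11, was followed by ribosome profiling together with RPL23 and the factors that carry and load the particle. The genes were chosen by name: RPL5, RPL11, RPL23, RRS1, RPF2, HEATR3 and SDAD1. Both deposited tables list 6 of these 7 genes, out of 11940 genes listed in either table. SDAD1 is not listed in either.

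Ribosome profiling sequences the stretches of mRNA that translating ribosomes protect from nuclease. It was done in 8 libraries of BJ cells, an established human fibroblast line from skin. All clones, the wild-type (WT) ones included, are labelled BJ-HRAS, after the GTPase whose oncogenic form drives fibroblasts into a lasting growth arrest called senescence. WT clones 15 and 54 and SNORA13 knockout (KO) clones 66 and 69 were each collected without 4-hydroxytamoxifen (4-OHT) and after 7 days with 100 nM of it, which gave 4 groups of 2 libraries. 4-OHT is a drug metabolite often used to activate fusions with an altered estrogen receptor domain, and SNORA13 is a small nucleolar RNA, a class that guides chemical modification of other RNAs. The labels give no further detail of the HRAS construct. Each genotype rests on 2 clones, so genotype and clone cannot be told apart. SNORA13 and its host gene EPB41L4A-AS1 are not listed in either table, so the knockout could not be checked on these values. The 4-OHT and untreated libraries stand in separate tables, so 4-OHT and any batch of a table cannot be told apart either. The series' title names ribosome biogenesis and senescence, and the question put here is whether footprints on these mRNAs differed with 4-OHT or with the loss of SNORA13.

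RPL5 and RPL11 reach the nucleolus as part of the 5S RNP, which RPF2 and RRS1 dock onto the pre-60S particle, the precursor of the large ribosomal subunit. HEATR3 is the import adaptor of RPL5, RPL23 is a protein of the subunit interface, and SDAD1 acts in maturation and export of the pre-60S particle. When assembly falters, free RPL5, RPL11 and RPL23 can bind and restrain MDM2, a ubiquitin ligase.

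Messenger RNAs of ribosomal proteins are known for starting with a C and an unbroken run of pyrimidines, the 5′ terminal oligopyrimidine tract, which ties their translation to growth signals. RPL11 is shown because it is listed in both tables and RefSeq sequence around its start was at hand. The RefSeq table of promoter windows (GRCh38.p14) held 2 of the 7 genes, RPL11 and SDAD1. The plus-strand window around the second annotated RPL11 start, chr1:23691788-23691817, is shown 5′ to 3′, with 18 bases before the start and 12 from it on, and with the pyrimidine run from the start in capitals.
RPL11: ggccggaagctccgctttCTCTTCCTgctc
The run began with C at position 23691806 and was 8 bases long. At the first annotated RPL11 start, position 23691779, and at that of SDAD1 the base is A. Read on the strand of the gene, a C at the annotated start with an unbroken run of at least 5 C or T stood in 1429 of 35116 windows (4.07%) and in 45 of the 76 windows of ribosomal protein genes. This is a description of letters at annotated starts, and the footprint values do not tell which start was used. Only footprint values were used here, so more mRNA and more translation of each mRNA cannot be told apart in the differences below.

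Deposited values were RPKM over the whole span of a gene, introns included, and reads behind them were recovered approximately. Recovered depth was 790828 to 1710595 reads in the libraries without 4-OHT and 190902 to 1686625 in those with it. The lowest depth was that of treated KO clone 66, where 3169 of 11079 listed genes were at 0. All 9 fibroblast markers were listed and above 0 in every library, and they took 5.92 to 7.65% of reads without 4-OHT and 2.39 to 2.85% with it. Of 6 keratinocyte markers 1 was listed (KRT10, 0 to 0.843 RPKM without 4-OHT and 2.26 to 10.2 with it), and of 5 melanocyte markers 0. Endothelial markers numbered 1 of 5 in each table (summed 0 to 0.0249 RPKM). Leukocyte markers numbered 3 of 5 without 4-OHT (PTPRC, CD14 and CD68) and 2 of 5 with it (CD14 and CD68). They took 0.0139 to 0.0292% of reads without 4-OHT and 0.0261 to 0.0408% with it. Their summed values were 59.4 to 121 RPKM without 4-OHT and 113 to 169 with it. The part of these shifts in the results with 4-OHT was not tested. In bulk libraries fewer cells of a type and fewer footprints per cell cannot be told apart.

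Footprints on RPL5, RPL11, RPL23, RRS1 and RPF2 were higher with 4-OHT in all 4 clones, by 2.21 to 8.82 times per clone, while HEATR3 was lower in 3 of the 4. In the fit across all genes, 5 of the 6 listed genes rose with 4-OHT in WT clones and the same 5 rose in KO clones. The background was 13.6% of 8727 tested genes called higher and 8.12% called lower in WT clones, and 17.3% and 10.6% in KO clones. Calls are an adjusted p under 0.05 by limma-trend on log2(RPKM + 1), with Benjamini-Hochberg adjustment over all tested genes. All 6 listed genes passed the filter of 10 recovered reads in at least 2 libraries. Differences on that scale (log2, ± SE) are smaller than the ratios of RPKM, most of all for RPF2 and HEATR3, whose values lie near the added 1. The 4 treated libraries lay wholly above the 4 untreated ones for 5 of the 6 genes, beside 24.7% of all tested genes. Without clone 66 with 4-OHT, the shallowest library, the count in KO clones was also 5.

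**Figure D1:**
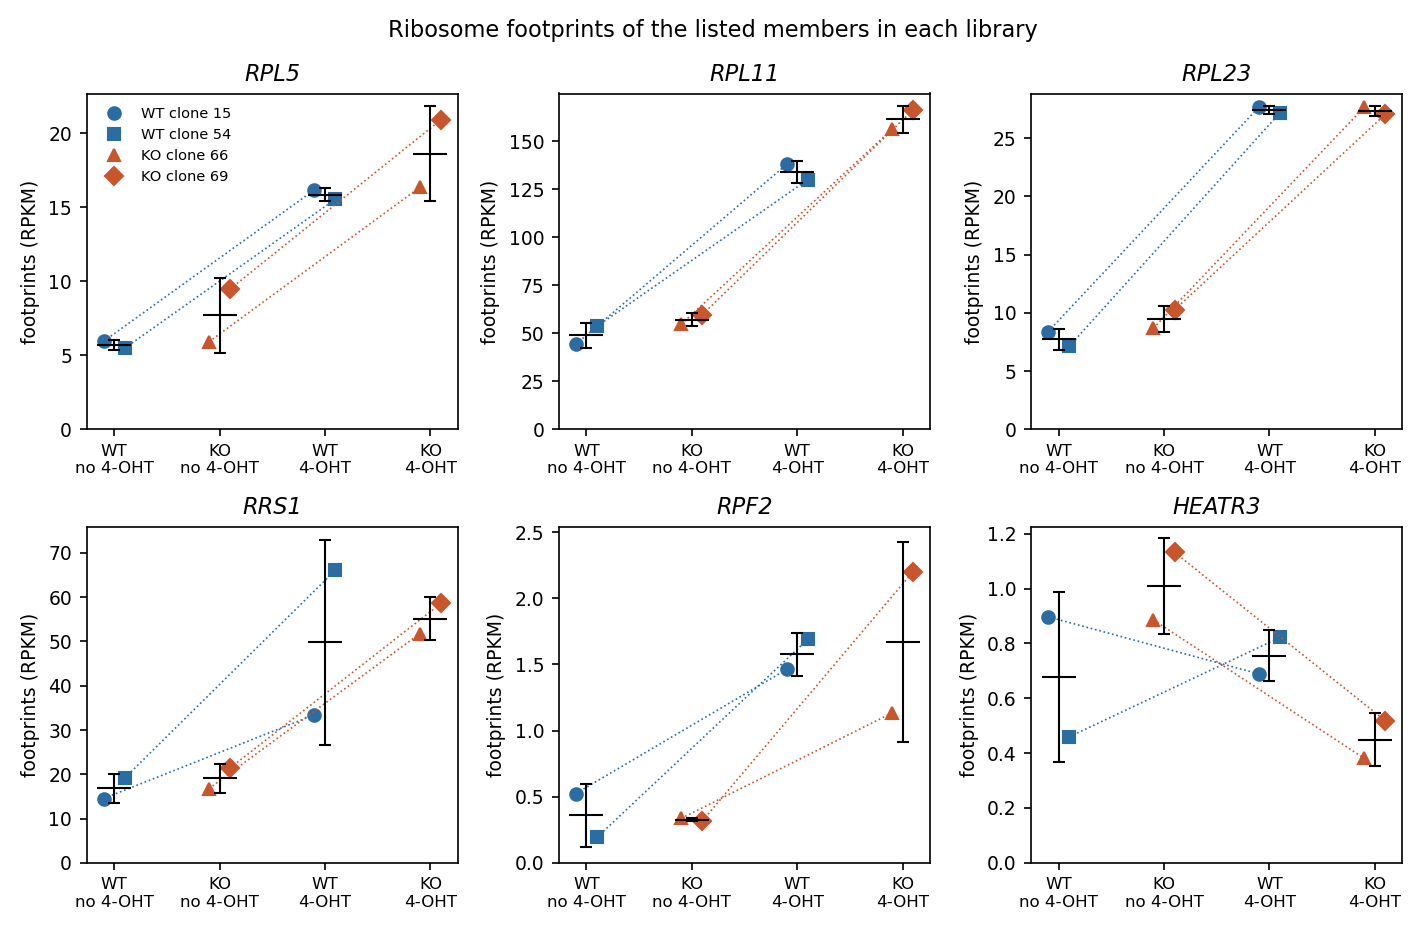
Footprint level in RPKM (y axis, from 0) of each listed gene in the 4 groups (x axis). Points are libraries, the wide black line is the mean, whiskers are ± 1 SD (n = 2), and dotted lines join the 2 libraries of a clone. With 4-OHT, both libraries of each genotype lie above both without it for every gene but HEATR3.

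RPL11 (ENSG00000142676.14, chr1:23691779-23696835, GRCh38.p14) joins RPL5 and the 5S ribosomal RNA in the particle and binds MDM2. Without 4-OHT it had 44.2 and 53.6 RPKM in WT clones 15 and 54, and 54.7 and 59.6 in KO clones 66 and 69. With 4-OHT it had 138 and 130 RPKM in the WT clones, and 156 and 166 in the KO clones. The 4 libraries with 4-OHT did not overlap the 4 without it, and KO clone 69 was the highest in both tables. The group means without 4-OHT were 48.9 ± 6.60 (SD, n = 2) in WT and 57.1 ± 3.51 in KO clones, and with 4-OHT 134 ± 5.63 and 161 ± 7.19. RPL11 rose by 1.44 ± 0.17 in WT clones (adjusted p = 0.00181, limma) and by 1.48 ± 0.17 in KO clones (adjusted p = 0.00133, limma). Its recovered reads were the most of the 6 genes, 151 to 1176 per library. The ratio of RPKM with to without 4-OHT was 3.12 in clone 15, 2.43 in clone 54, 2.86 in clone 66 and 2.79 in clone 69. The call held under each of the 11 alternatives in both genotypes, each library left out in turn included. Its size was smaller with median-ratio scaling (1.17 in WT and 1.14 in KO clones) and with limma-voom (1.25 and 1.21).

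RPL5 (ENSG00000122406.13, chr1:92831986-92841924) binds the 5S ribosomal RNA directly. Without 4-OHT it had 5.93 and 5.47 RPKM in WT clones 15 and 54, and 5.91 and 9.47 in KO clones 66 and 69. With 4-OHT it had 16.2 and 15.5 RPKM in the WT clones, and 16.3 and 20.9 in the KO clones. The treated and untreated libraries did not overlap, and clone 69 was again the highest in both tables. Group means were 5.70 ± 0.329 (SD, n = 2) in WT and 7.69 ± 2.52 in KO clones without 4-OHT, and 15.9 ± 0.440 and 18.6 ± 3.22 with it. RPL5 rose by 1.33 ± 0.24 in WT clones (adjusted p = 0.0083, limma) and by 1.20 ± 0.24 in KO clones (adjusted p = 0.0107, limma). Leaving out clone 54 without 4-OHT took the WT adjusted p (limma) to 0.0637, leaving it out with 4-OHT to 0.0518, and leaving out clone 66 without 4-OHT took the KO adjusted p to 0.0624. A fit on the KO libraries alone gave 0.0514 (limma). The RPL5 difference was 1.08 in WT and 0.88 in KO clones with median-ratio scaling, and 1.23 and 1.03 with limma-voom. The span of RPL5 holds the snoRNA genes SNORD21 and SNORA66 and overlaps DIPK1A, and the annotation names 35 RPL5 pseudogenes, so reads from these may count in its values or be lost to them, which was not tested.

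RPL23 (ENSG00000125691.13, chr17:38847860-38853721) sits at the face of the large subunit that meets the small one. Without 4-OHT it had 8.38 and 7.11 RPKM in WT clones 15 and 54, and 8.69 and 10.3 in KO clones 66 and 69. With 4-OHT it had 27.7 and 27.2 RPKM in the WT clones, and 27.7 and 27.1 in the KO clones. These 4 treated libraries were nearly level, with the highest only 1.02 times the lowest. Their spread was narrower than the counting error, since the 95% Poisson interval of clone 66, from 31 recovered reads, ran from 18.8 to 39.3 RPKM. Group means were 7.74 ± 0.896 (SD, n = 2) and 9.47 ± 1.11 without 4-OHT, and 27.4 ± 0.345 and 27.4 ± 0.429 with it, WT first. RPL23 rose by 1.71 ± 0.18 in WT clones (adjusted p = 0.00105, limma) and by 1.44 ± 0.18 in KO clones (adjusted p = 0.00159, limma), and both calls held under each of the 11 alternatives. In WT clones this was the largest of the 6 log2 differences with 1 added, while RPF2 exceeded it with 0.1 added (1.97 against 1.82) and with limma-voom (1.82 against 1.56). Median-ratio scaling gave RPL23 differences of 1.45 in WT and 1.12 in KO clones, and limma-voom gave 1.21 in KO clones. The snoRNA genes SNORA21 and SNORA21B lie within the span, and 10 pseudogenes are named for RPL23.

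RRS1 (ENSG00000179041.4, chr8:66429014-66430733) forms a complex with RPF2 that docks the 5S RNP. Without 4-OHT it had 14.5 and 19.1 RPKM in WT clones 15 and 54, and 16.8 and 21.4 in KO clones 66 and 69. With 4-OHT it had 33.4 and 66.1 RPKM in the WT clones, and 51.8 and 58.6 in the KO clones. Every treated library lay above every untreated one. In RPKM the treated WT clones differed from each other by more than clone 15 differed from its own untreated library. As a ratio they differed by less, 1.98 times against 2.30 times. Group means were 16.8 ± 3.25 (SD, n = 2) and 19.1 ± 3.29 without 4-OHT, and 49.8 ± 23.1 and 55.2 ± 4.83 with it, WT first. RRS1 rose by 1.44 ± 0.32 in WT clones (adjusted p = 0.0191, limma) and by 1.49 ± 0.32 in KO clones (adjusted p = 0.0143, limma). The WT difference ran from 0.96 (without clone 54 treated) to 1.93 (without clone 15 treated) when 1 library was left out. The WT call was lost without clone 15 untreated (adjusted p = 0.12, limma), without clone 54 untreated (0.0645) and without clone 54 treated (0.0812). The KO call was lost without clone 66 untreated (adjusted p = 0.0891, limma). The RRS1 difference was 1.18 in WT and 1.16 in KO clones with median-ratio scaling, and 1.11 and 1.26 with limma-voom.

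RPF2 (ENSG00000197498.13, chr6:110982038-111028263) is the partner of RRS1. Its span is long and its values low, from 7 to 114 recovered reads per library. Without 4-OHT it had 0.524 and 0.192 RPKM in WT clones 15 and 54, and 0.336 and 0.316 in KO clones 66 and 69. With 4-OHT it had 1.46 and 1.69 RPKM in the WT clones, and 1.13 and 2.20 in the KO clones. All treated libraries lay above all untreated ones. The ratio of group mean RPKM was 4.41 in WT and 5.12 in KO clones, the largest of the 6 genes in both genotypes. On the log2 scale RPF2 rose by 0.93 ± 0.23 in WT clones (adjusted p = 0.0287, limma) and by 0.98 ± 0.23 in KO clones (adjusted p = 0.0202, limma). With 0.1 added in place of 1, these differences were 1.97 and 1.98, and with limma-voom on recovered reads 1.82 and 2.29. Median-ratio scaling gave 0.80 and 0.82. With the clone as a block, the pairing of each clone with itself, the WT adjusted p (limma) was 0.0502, and with the block in limma-voom on recovered reads 0.00738. The WT call was lost when any 1 of the 4 WT libraries was left out (adjusted p 0.0689 to 0.19, limma), and the KO call without untreated clone 66 (0.0978) or 69 (0.0858) and in a fit on the KO libraries alone (0.061).

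HEATR3 (ENSG00000155393.13, chr16:50065970-50107272), the import adaptor, did not pass the test in either genotype. Without 4-OHT it had 0.897 and 0.459 RPKM in WT clones 15 and 54, and 0.886 and 1.13 in KO clones 66 and 69. With 4-OHT it had 0.689 and 0.822 RPKM in the WT clones, and 0.381 and 0.518 in the KO clones. The WT libraries overlapped between the treatments and the KO libraries did not. In WT clones the ratio of RPKM with to without 4-OHT was 0.768 in clone 15 (95% counting interval 0.505 to 1.17) and 1.79 in clone 54 (0.871 to 3.76). In KO clones it was 0.43 in clone 66, from 33 reads and 3 reads (0.0843 to 1.37), and 0.457 in clone 69, from 80 reads and 21 reads (0.268 to 0.747). The log2 difference was 0.08 ± 0.18 in WT clones (adjusted p = 0.8, limma) and -0.47 ± 0.18 in KO clones (adjusted p = 0.0847, limma). With median-ratio scaling the KO difference was -0.60 (adjusted p = 0.0409, limma), with 0.1 added in place of 1 it was -1.02 and with limma-voom -1.31, neither of them called. The WT difference changed sign with median-ratio scaling (-0.04). The counting intervals hold counting error alone and take each recovered read as a separate molecule. How PCR copies of a molecule were handled is not given in the sources used here. HEATR3 overlaps its antisense gene HEATR3-AS1, and whether the counting used strand is not given in the sources used here.

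**Figure D2:**
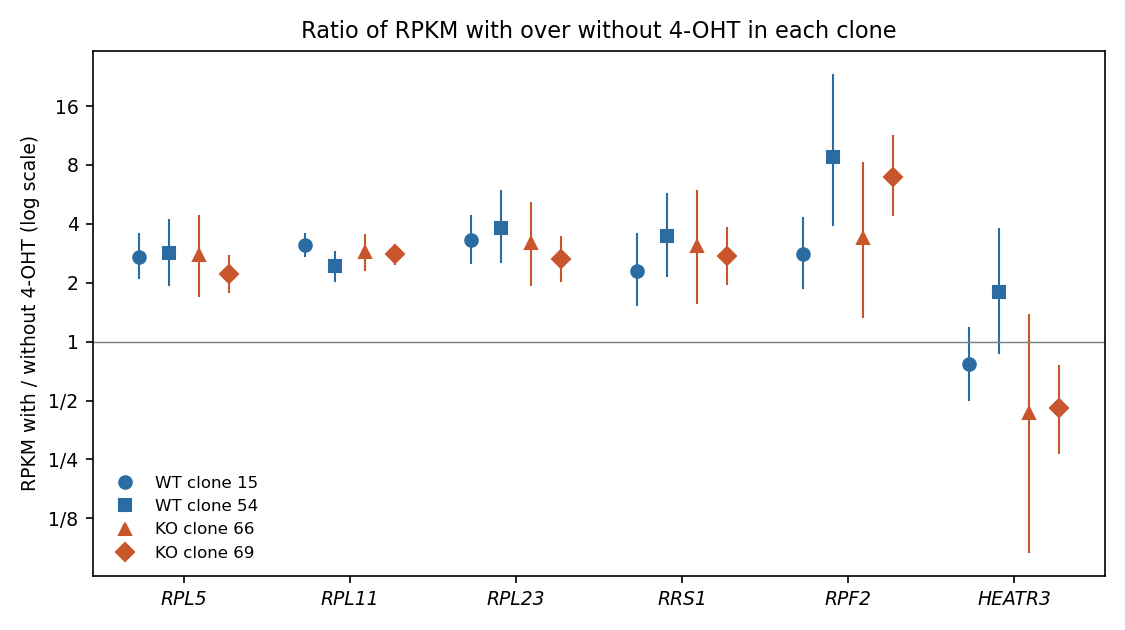
Ratio of RPKM with over without 4-OHT in each clone (y axis, log scale) for the 6 listed genes (x axis), with exact 95% intervals for counting error as bars. RPL5, RPL11, RPL23, RRS1 and RPF2 lie above 1 in every clone. For HEATR3, WT clone 15 and both KO clones lie below 1 and WT clone 54 lies above it, and only the interval of clone 69 leaves out 1.

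The order of the group means was the same for RPL5, RPL11 and RRS1: WT without 4-OHT, KO without, WT with, KO with. For RPL5 and RRS1, neighbouring genotypes at the same treatment differed by less than the larger SD between clones. Without 4-OHT the clones of the genotypes did not overlap for 2 of the 6 genes (RPL11 and RPL23), beside 39.6% of all tested genes. With 4-OHT they did not overlap for 3 of the 6 (KO higher for RPL5 and RPL11, lower for HEATR3), beside 37.6%. None of these differences passed the test below. With 4-OHT the RPL23 means of the genotypes were level. The order of RPF2 was KO and then WT without 4-OHT, and WT and then KO with it, with overlap between genotypes in both. HEATR3 ran from treated KO (0.449 ± 0.0970 RPKM, SD, n = 2) through untreated WT (0.678 ± 0.310) and treated WT (0.756 ± 0.0941) to untreated KO (1.01 ± 0.174).

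None of the 6 genes differed between KO and WT clones in the test, in either table (0 of 6), where 0% of 8103 genes without 4-OHT and 0% of 7710 with 4-OHT were called by limma-trend. At an unadjusted p under 0.05 there were 689 and 365 genes, none of them among these 6, and limma-voom on recovered reads called 68 genes (0.839%) and 38 genes (0.493%), again with 0 of the 6. Without 4-OHT the log2 difference of KO minus WT was 0.34 ± 0.24 for RPL5, 0.23 ± 0.18 for RPL11 and 0.26 ± 0.19 for RPL23 (adjusted p 0.719, 0.745 and 0.724, limma). For RRS1 it was 0.18 ± 0.22, for RPF2 -0.02 ± 0.13 and for HEATR3 0.27 ± 0.18. Clone 69 was the highest library without 4-OHT for RPL5, RPL11, RPL23, RRS1 and HEATR3, and without that clone the RPL5 difference was 0.05. With 4-OHT the difference of RPL23 was -0.00346, with a 95% interval of -0.50 to 0.50, so a change of up to 0.50 in either direction on the log2 scale lies within the interval. The treated differences were 0.21 ± 0.23 for RPL5, 0.27 ± 0.21 for RPL11, 0.22 ± 0.35 for RRS1, 0.02 ± 0.31 for RPF2 and -0.28 ± 0.16 for HEATR3. Adjusted p-values of the 6 genes (limma) with 4-OHT ran from 0.823 to 0.998. With 2 clones against 2, an exact permutation test could give no p below 1 in 3.

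The change with 4-OHT was then compared between genotypes as an interaction. None of the 6 genes passed (0 of 6, against 0% of 8727 genes by limma-trend). At an unadjusted p under 0.05 there were 454 genes and limma-voom called 3 (0.0344%), with 0 of the 6 in either. HEATR3 had the largest difference, a change lower by 0.55 ± 0.25 in KO clones (95% interval -1.13 to 0.03, adjusted p = 0.857, limma). The RPL23 change was lower by 0.26 ± 0.25 in KO clones (-0.85 to 0.32, adjusted p = 0.885, limma). For RPL5 the difference was -0.13 ± 0.34 and for RPL11 0.04 ± 0.25. For RRS1 and RPF2 it was 0.05 ± 0.46 and 0.05 ± 0.33. The signs for RPL5, RPL11, RRS1 and RPF2 turned under at least 1 alternative, and so did those of RRS1, RPF2 and treated RPL23 between genotypes.

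**Figure D3:**
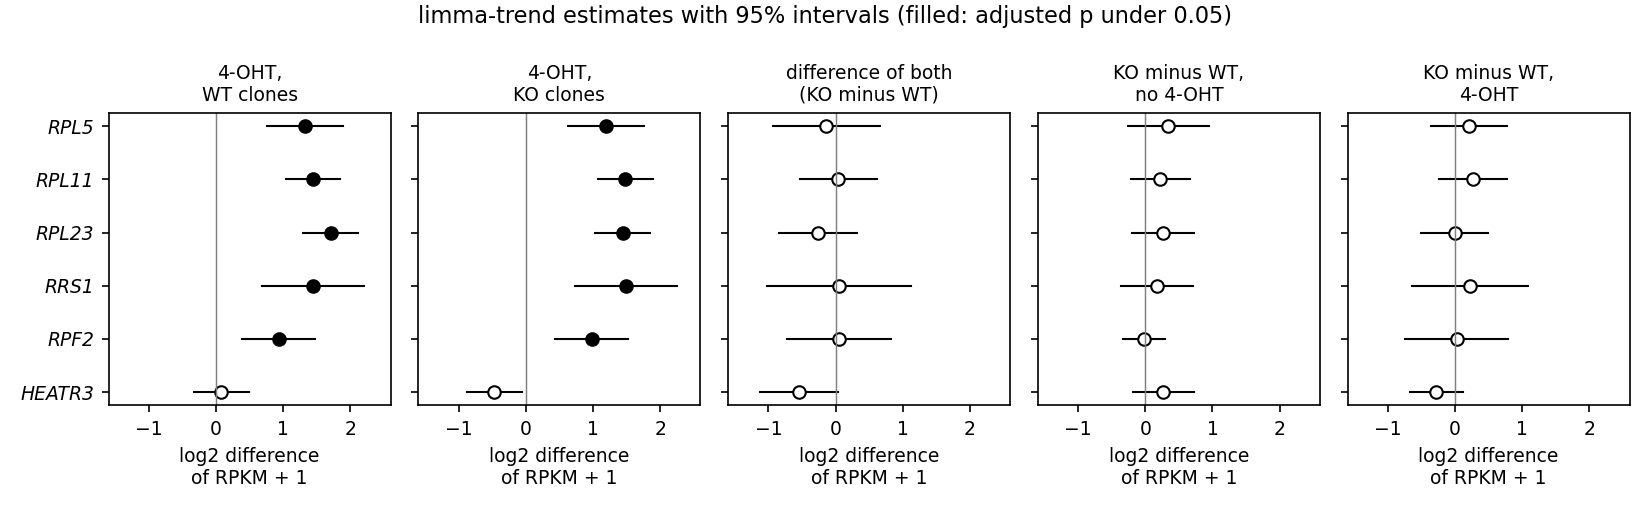
Estimated log2 difference of RPKM + 1 (x axis) for each listed gene (rows) in the 5 comparisons (panels), with 95% intervals from limma-trend. Filled points have an adjusted p under 0.05: RPL5, RPL11, RPL23, RRS1 and RPF2 with 4-OHT in both genotypes, and no point in the other 3 panels.

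RPL5 and RPL11 enter the particle one to one, so the ratio of their footprints was taken in each library. This and the other ratios were chosen after seeing the data. RPL5 over RPL11 was 0.102 to 0.159 in the 4 libraries without 4-OHT and 0.105 to 0.126 in the 4 with it, which overlap (exact two-sided permutation test over libraries, p = 0.657). These ratios compare values per gene span, not per coding length, so only their change can be read. RPL23 over RPL11 was 0.133 to 0.189 without 4-OHT and 0.163 to 0.209 with it (exact permutation p = 0.171, adjusted 0.257 over 6 ratios). RPL23 over RPL5 was 1.08 to 1.47 and 1.29 to 1.75 (exact permutation p = 0.114, adjusted 0.229). Within clones this ratio was higher with 4-OHT in 4 of 4, by 0.20 to 0.43 on the log2 scale (exact paired permutation test over 4 clones, p = 0.125, the smallest it can give). HEATR3 over RPL11 did not overlap between treatments, with means of 0.0152 without and 0.00393 with 4-OHT (exact permutation p = 0.0286, the smallest that 4 against 4 can give, adjusted 0.171). RPF2 over RPL11 was 0.00358 to 0.0118 without 4-OHT and 0.00725 to 0.0132 with it (exact permutation p = 0.0857, adjusted 0.229). Within clones that ratio was higher with 4-OHT in 3 of 4 (exact paired permutation p = 0.25). RRS1 over RPL11 was 0.307 to 0.359 without 4-OHT and 0.242 to 0.509 with it (exact permutation p = 0.857). By genotype, adjusted p (exact permutation) was 0.829 for each of the 6 ratios. Apart from the paired test, the libraries of a clone entered as separate values. The genotype comparison thus counts each of the 2 clones of a genotype by 2 libraries, which are not independent. Within clones HEATR3 over RPL11 was lower with 4-OHT in 4 of 4 (exact paired permutation p = 0.125). RPL11, the denominator, was higher with 4-OHT in every clone. HEATR3 itself was 1.79 times as high with 4-OHT in WT clone 54 and lower in the other clones. The ratio was chosen with these changes known, so its p-values give no support of their own.

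RPL5, RPL11 and RPL23 were next placed among the large-subunit proteins. The list was read from the gene names after seeing the data, and its counts and medians include RPL5, RPL11 and RPL23. Of 35 listed, 31 were tested, and in WT clones 25 rose and 1 fell, in KO clones 23 rose and 0 fell. Among all tested genes, 13.6% were called higher and 8.12% lower in WT clones, and 17.3% and 10.6% in KO clones. RPL9, RPL17 and RPL29 passed the read filter only through the treated libraries, where they were high. Over the 28 genes that passed it in each table, 22 rose and 1 fell in WT clones and 20 rose and 0 fell in KO clones, with medians of 1.41 and 1.28. With limma-voom 22 rose and 1 fell in WT clones (15.3% and 17.1% over all tested genes), and 20 rose and 1 fell in KO clones (14.6% and 15.2%). The median log2 difference of the 31 was 1.44 in WT clones beside 0.06 over all tested genes, and 1.32 in KO clones beside 0.05. Over the 28 tested genes other than RPL5, RPL11 and RPL23, the medians were 1.43 in WT and 1.30 in KO clones. RPL23 ranked 11, RPL11 15 and RPL5 21 of the 31 in WT clones, and RPL11 ranked 11, RPL23 12 and RPL5 20 in KO clones. RPL13A was the gene that fell in WT clones, by 1.82 ± 0.47 (adjusted p = 0.0326, limma), and in KO clones its difference was -1.16 ± 0.47 (adjusted p = 0.109, limma).

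Other ribosomal proteins reported to bind MDM2 were described from a list: of 8 tested genes, 6 rose in WT and 7 in KO clones, with medians of 1.34 and 1.42. The share called higher among all tested genes was 13.6% in WT and 17.3% in KO clones. RPL26, a protein of the large subunit, had 3.83 and 4.19 RPKM in untreated WT clones and 33.6 and 32.3 in treated ones. It rose by 2.76 ± 0.18 in WT clones (adjusted p = 0.000255, limma) and by 2.36 ± 0.18 in KO clones (0.000341). RPL37 rose by 1.96 and 1.57, RPS20 by 1.80 and 1.71, RPL4 by 1.43 and 1.27 and RPS3 by 1.16 and 1.19, in WT and KO clones. RPS15 rose by 1.57 in KO clones (adjusted p = 0.00373, limma), and its WT difference was 0.71 (0.0751). RPL6, RPS25, RPS26 and RPS27L are not listed, and RPS27 and RPS27A did not pass the read filter.

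Partners of the 5S RNP and the factors that remodel the particle around it formed another list. Of its 13 tested genes, 2 rose in WT clones (RPF1 and BOP1) and 2 rose in KO clones (RPF1 and BRIX1), with medians of 0.21 and 0.17. That is near the 13.6% and 17.3% called higher over all genes. Limma-voom also called 2 higher in each genotype, and called MDN1 and NOL9 lower in WT clones and MDN1 in KO clones. RPF1 and BRIX1 belong to the same protein family as RPF2 and act in large-subunit assembly. RPF1 rose by 1.42 ± 0.23 in WT and 1.06 ± 0.23 in KO clones, from 2.14 and 2.52 to 8.70 and 7.12 RPKM in the WT clones. BRIX1 rose by 1.64 ± 0.26 in KO clones (adjusted p = 0.00414, limma), and its WT difference was 0.84 ± 0.26 (0.0572). BOP1, a member of the PeBoW complex, rose by 1.10 ± 0.26 in WT clones (adjusted p = 0.0245, limma), with 0.70 ± 0.26 in KO clones (0.0886). MDN1, the giant ATPase that pulls assembly factors off the pre-60S particle, fell by 0.32 ± 0.10 in KO clones (adjusted p = 0.0498, limma), with -0.24 ± 0.10 in WT clones (0.131). It stood at 0.321 to 0.503 RPKM in the 4 libraries without 4-OHT and 0.0591 to 0.218 with it. GTF3A, the transcription factor that also binds 5S ribosomal RNA, had 0.0989 to 0.608 RPKM without 4-OHT, and 2.12, 1.36, 0 and 2.45 in treated clones 15, 54, 66 and 69, and did not pass (adjusted p 0.214 and 0.49, limma). SSB, WDR12, WDR18, LAS1L and NIP7 are not listed.

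Of the neighbours of RPL23 on the subunit and the late pre-60S factors, 7 of 12 tested rose in WT clones and 5 of 12 in KO clones, with medians of 0.94 and 0.70. Without NSA2, which had 2 to 8 recovered reads in each untreated library and passed the filter only through the treated ones, the counts were 6 and 4 of 11. Among all tested genes 13.6% and 17.3% were called higher, and 14.4% and 18.2% of those that passed the filter in each table. RPL19, a large-subunit protein, rose by 1.37 ± 0.18 in WT and 0.59 ± 0.18 in KO clones. The GTPase GNL2 rose by 1.05 and 1.48, and RSL24D1 rose by 1.18 and 1.16. MRTO4, which resembles the stalk protein RPLP0 and holds its place on the pre-60S particle, rose by 1.93 ± 0.45 in WT clones (adjusted p = 0.0216, limma). In KO clones it had 5.04 RPKM in treated clone 66 (8 reads) and 16.6 in treated clone 69, with 0.74 ± 0.45 (0.251). Limma-voom called 6 of the 12 higher in WT and 4 in KO clones, NSA2 among them in both. Over all tested genes it called 15.3% and 14.6% higher. In KO clones limma-voom called MRTO4 higher and did not call RPL19. GTPBP4 rose by 1.12 in WT clones, and its KO difference was 0.68 (adjusted p = 0.0726, limma). EIF6, NMD3 and RPL10 are not listed.

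The last list held genes of the MDM2 axis and nucleolar regulators. MDM2 had 1.17 and 1.31 RPKM in untreated WT clones and 3.70 and 2.64 in treated ones. It had 1.25 and 1.39 RPKM in untreated KO clones and 3.82 and 2.04 in treated ones. The treated libraries lay above the untreated ones in both genotypes, but MDM2 did not pass (0.88 ± 0.27, adjusted p = 0.0558, and 0.72 ± 0.27, adjusted p = 0.086, limma). By limma-voom it was called in WT clones (1.17, adjusted p = 0.00296) and not in KO clones (0.53, 0.219). CDKN1A, an inhibitor of cyclin-dependent kinases, rose from 5.84 and 14.2 RPKM to 172 and 129 in WT clones and from 7.03 and 10.4 to 136 and 84.3 in KO clones. Its log2 differences were 3.88 ± 0.42 and 3.50 ± 0.42 (adjusted p = 0.00114 and 0.00142, limma). GNL3, a nucleolar GTPase that binds MDM2, rose by 1.36 ± 0.20 and 1.61 ± 0.20. HEXIM1, an inhibitor of the elongation factor P-TEFb that binds NPM1, fell by 1.96 ± 0.22 and 1.76 ± 0.22. NOP53, which binds the 5S RNP, and NPM1, a nucleolar chaperone, did not pass (0.52 and 0.67 in WT clones, 1.15 and 0.44 in KO clones). Of the 7 tested genes of this list 2 rose and 1 fell in each genotype, with medians of 0.67 and 0.72. Among all tested genes, 13.6% were called higher and 8.12% lower in WT clones, and 17.3% and 10.6% in KO clones. NCL and CDKN2A are not listed, and MDM4 did not pass the filter. Over these 4 lists and the large-subunit list, limma-trend called 0 of 66 genes in the interaction, 0 of 61 between untreated and 0 of 65 between treated genotypes. At an unadjusted p under 0.05 there were 4, 6 and 2. Limma-voom called CDKN1A lower in treated KO clones and 0 genes in the other 2 comparisons.

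**Figure D4:**
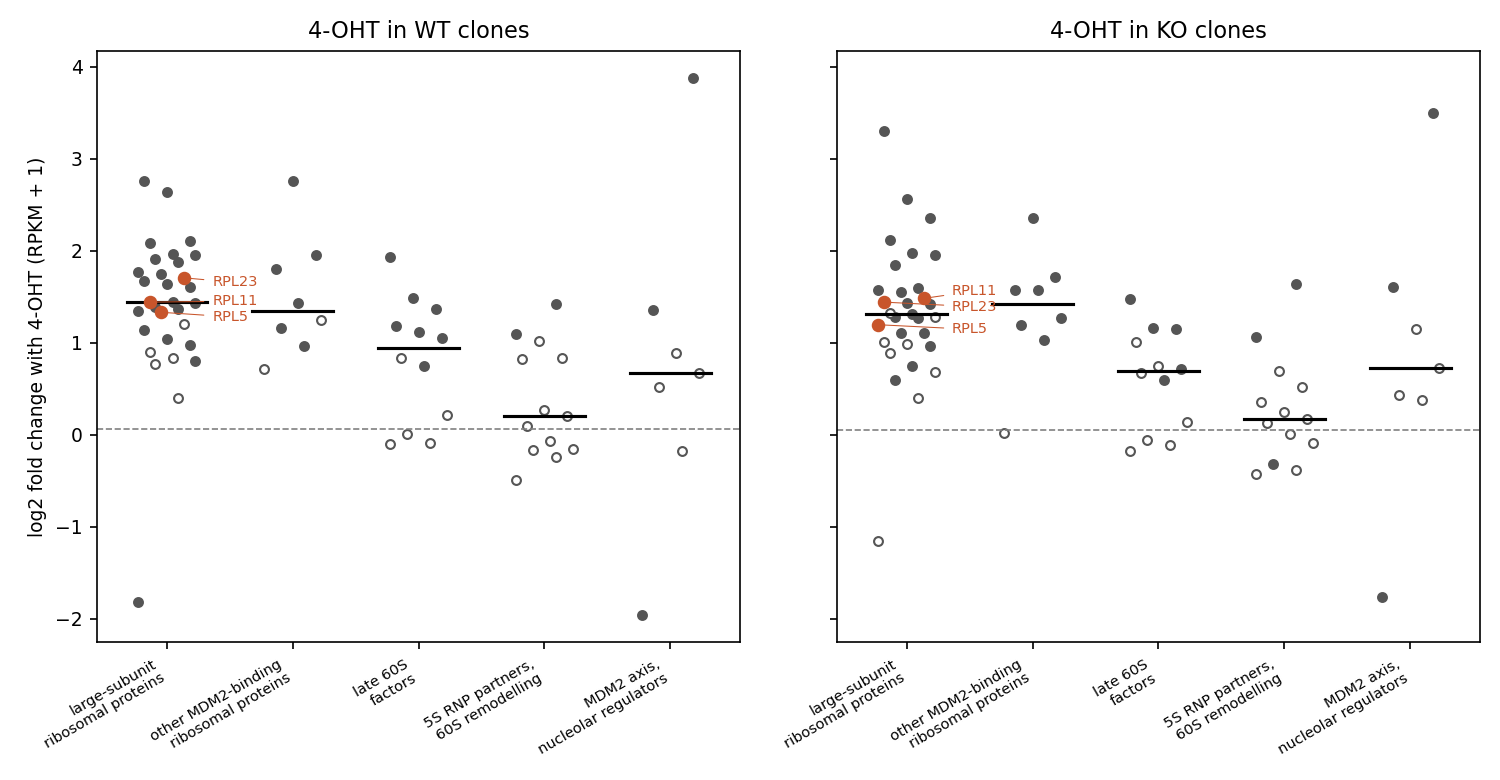
Log2 difference of RPKM + 1 with 4-OHT (y axis) of each tested gene in 5 lists (x axis), in WT clones (left) and KO clones (right). Filled points have an adjusted p under 0.05, bars are medians over the tested genes of a list and the dashed line is the median of all tested genes. RPL5, RPL11 and RPL23 (orange) lie near the median of the large-subunit proteins, 1.44 and 1.32, which includes them.

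Across the 8 libraries the listed genes differed in how alike their profiles were. Likeness was the root mean square difference between gene-centred log2(RPKM + 1) values. RPL11 and RPL23 were the closest pair (0.169), followed by RPL5 and RPL11 (0.196) and RPL5 and RPL23 (0.221). HEATR3 was farthest from the rest, at 0.608 to 0.899. Among genes within 4 times the mean RPKM of each, those nearest to RPL5 were NRAS (0.0782), ATP5MC1 (0.127) and RPS3 (0.139). Near to RPL11 were CCT5 (0.129) and ATP5MC1 (0.136), and nearest to RPL23 were GRPEL1 (0.112), TCEAL8 (0.125) and TXN (0.138). For RRS1 they were PPP1R35 (0.201) and RPS16 (0.205). For RPF2 they were AKAP2 (0.116), SH2B3 (0.128) and BLVRA (0.134), and for HEATR3 AKAP1 (0.0724), PITPNA (0.0828) and ZNF746 (0.0862). The libraries share their depth and scaling for all genes, and no test goes with these values.

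Gene span moved with the 4-OHT differences over all genes. Across 8727 genes, which share the 8 libraries and are not replicates, Spearman's rho of span with the log2 difference was -0.28 in WT and -0.22 in KO clones. RPL5, RPL11, RPL23 and RRS1 lie in the shortest of 5 equal classes of span (387 to 11233 bases), where the median difference was 0.50 in WT and 0.49 in KO clones and 28.4% and 31.4% of genes were called higher. Each of the 4 had a difference above those medians. RPF2 and HEATR3 lie in the third class, with medians of 0.08 and 0.08 and with 9.80% and 14.1% called higher. The part of gene span in these differences was not tested.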

How the data were processed

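Ribosome-protected fragments of 8 libraries were prepared by published ribosome profiling protocols, per the labels' protocols. STAR and GRCh38 are named in the submitters' processing notes, and nothing used here gives the read counter, the annotation or the handling of multi-mapping reads. The tables name no unit. The deposited values were taken as RPKM made by the authors, because value times RefSeq gene span (GRCh38.p14, introns included) sums to nearly the same total in each library. No span was matched for 104 of 11546 and 103 of 11079 genes, which were not tested. Low values came in steps of 1 read, from which depth and reads were recovered (77.0 to 82.0% of values within 0.1 of a whole number), so these reads are approximate. No column was left unused (0).

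Genes with a minimum of 10 recovered reads in 2 or more libraries were tested with limma 3.58.1 (R 4.3.3, limma-trend) on log2(RPKM + 1), unblocked, with Benjamini-Hochberg adjustment over all genes and a threshold of 0.05. The 4-OHT comparisons and the interaction used all 8 libraries over shared genes, and genotypes were compared within each table. A count test, planned in case of counts, was not used. Each clone gives 1 library per table, so clones pair the tables. The correlation of clone differences between tables was 0.146 in WT and 0.00688 in KO clones. Nothing states whether the clones of a genotype were grown separately on each occasion, so p-values measure the spread between these libraries. The scripts were tested on simulated data.

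The genes, the gene lists, the markers and the tests were chosen with earlier results of these data known. Named list genes were up to 6 called per list by size, plus a fixed panel with MDM2, MDM4, CDKN1A, EIF6, NOP53, NPM1 and GTF3A. Some genes that the rules named are not reported here. Alternatives were another pseudocount, no filter, median-ratio scaling, limma-voom, the clone as a replicate block, other library sets in the fit and each library left out.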

Additional observations from a re-analysis of the deposited data

How the results depend on the processing

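The 5 calls with 4-OHT in WT clones became 2 to 4 when a library was left out and 4 with the clone as a replicate block, where RPF2 was lost (0.93, adjusted p = 0.0502, limma). The block changed no other call. In KO clones they became 2 to 5 when a library was left out, 3 with only the 4 KO libraries in the fit, and 6 with median-ratio scaling, which added HEATR3 (-0.60). Between genotypes and in the interaction the count was 0 under every alternative run. The HEATR3 change in WT clones turned sign with median-ratio scaling (-0.037), limma-voom (-0.20), limma-voom with the block (-0.30) and over the libraries left out (-0.11 to 0.27). The interaction turned for RPL11 (-0.030 with scaling, -0.034 with limma-voom, -0.047 with the block too) and for RRS1 (-0.024 with scaling, -0.010 with the block and limma-voom). With a library left out, it ran from -0.43 to 0.16 for RPL5, -0.10 to 0.18 for RPL11, -0.43 to 0.53 for RRS1 and -0.25 to 0.34 for RPF2. KO minus WT without 4-OHT then ran from -0.012 to 0.36 for RRS1 and -0.20 to 0.15 for RPF2. With 4-OHT it ran from -0.019 to 0.012 for RPL23, -0.26 to 0.70 for RRS1 and -0.27 to 0.32 for RPF2, where scaling gave -0.012. The causes were not tested.

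Over all genes, calls with 4-OHT were 1189 higher and 709 lower in WT clones as reported, 822 and 980 with median-ratio scaling, and 1333 and 1492 with limma-voom. In KO clones they were 1507 and 928, 1001 and 1344, and 1272 and 1327, with 762 and 511 from the 4 KO libraries alone and 1958 and 1512 without clone 69 treated. The median of all genes in KO clones was 0.05 as reported and -0.07 with limma-voom. Leaving out clone 69 treated also gave 251 genes higher and 614 lower between treated genotypes, by a fit in which the lone KO sample was assumed to vary like the WT samples. Footprint density per coding length was not run, because coding lengths were not at hand. Depth limits RPF2 and HEATR3 most, with 3 to 114 recovered reads per library.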
